A study of Ovis aries with 115 samples.

Results

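The cervix of Belclare ewes was compared with that of Suffolk ewes at the luteal phase of a synchronised oestrous cycle. The samples were those labelled with an induced cycle and the luteal phase, which gave 10 Belclare and 10 Suffolk libraries, 20 of the 115 in the series. One further Suffolk library, whose title and other labels name different cycles and phases, was left out of every comparison. RNA was taken post mortem from the mid-cervix of multiparous ewes, 1 library per ewe, and polyadenylated RNA was sequenced. All 20 ewes were labelled with an induced cycle. The study describes its synchronisation, a progestagen sponge followed by equine chorionic gonadotrophin, for ewes sampled while follicular. The protocol and day of sampling of the luteal ewes were not given in the sources used here. Both breeds were kept in Ireland, where Belclare has medium and Suffolk low fertility after cervical insemination with frozen-thawed semen. Other Belclare and Suffolk ewes, sampled while follicular in either a synchronised (10 and 11) or a natural cycle (10 and 8), served to repeat the same contrast. The breeds of the remaining ewes, FUR and Norwegian White Sheep, were sampled in Norway.

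In the luteal phase the corpus luteum secretes progesterone, oestradiol is low, and the cervix is closed by a folded, mucus-filled canal. In the follicular phase oestradiol rises, the stroma loosens and the cervical epithelium secretes more mucus. The tissue is a layered mix of mucous and ciliated epithelium, collagen-rich stroma, smooth muscle, vessels and leukocytes. A level in such bulk tissue is a sum over cells, so that fewer cells of a type and less RNA per cell cannot be told apart.

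Total counts ranged from 14783760 to 20570024 in the Belclare ewes and from 12238996 to 21071028 in the Suffolk ewes. The means did not differ beyond the spread between ewes (two-sided permutation test, p = 0.778). Smooth muscle (ACTG2, DES), mucous epithelium (MUC5AC, MUC5B, MUC16, CDH1, CLDN4), stroma (PI16, MMP2, FBLN1), ciliated cells (CFAP52, DRC7, RSPH9), leukocytes (CD27, PTPRCAP, ITGB2) and endothelium (VWF, ROBO4) were all represented. CXCR2 was too low for testing. Of the 18 identifiers of these markers that were tested, MMP2 was the one that passed the test of breed. ACTG2, the smooth muscle actin, ranged from 19.8 to 607 CPM (counts scaled to a common library size) in Belclare and from 87.2 to 258 CPM in Suffolk ewes.

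The phase label was checked with a score that used no Irish ewe to choose its genes. It is the mean log2 CPM of the 50 genes most clearly higher at the luteal phase in the FUR and Norwegian ewes, minus that of the 50 most clearly lower. The score lay between -0.74 and -0.31 in 9 Belclare luteal ewes and between -1.03 and -0.54 in 9 Suffolk luteal ewes. Replicate 7 of each breed stood apart, at -1.49 in Belclare and -2.01 in Suffolk. Both values fall inside the range of the 39 follicular ewes of these breeds, from -3.33 to -1.39. Median scores were -0.52 in Belclare and -0.76 in Suffolk luteal ewes, so the score moved with breed as well as with phase. The counts of DEGs are therefore given also without both replicates 7 and with the score as a covariate, and the calls of named genes that these fits end are stated with each group of genes. The genes of the score were picked among those tested for breed, and none was taken out of the fit with the covariate. A gene of the score is thus adjusted partly for itself there, and which DEGs are among them was not listed.

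**Figure D1:**
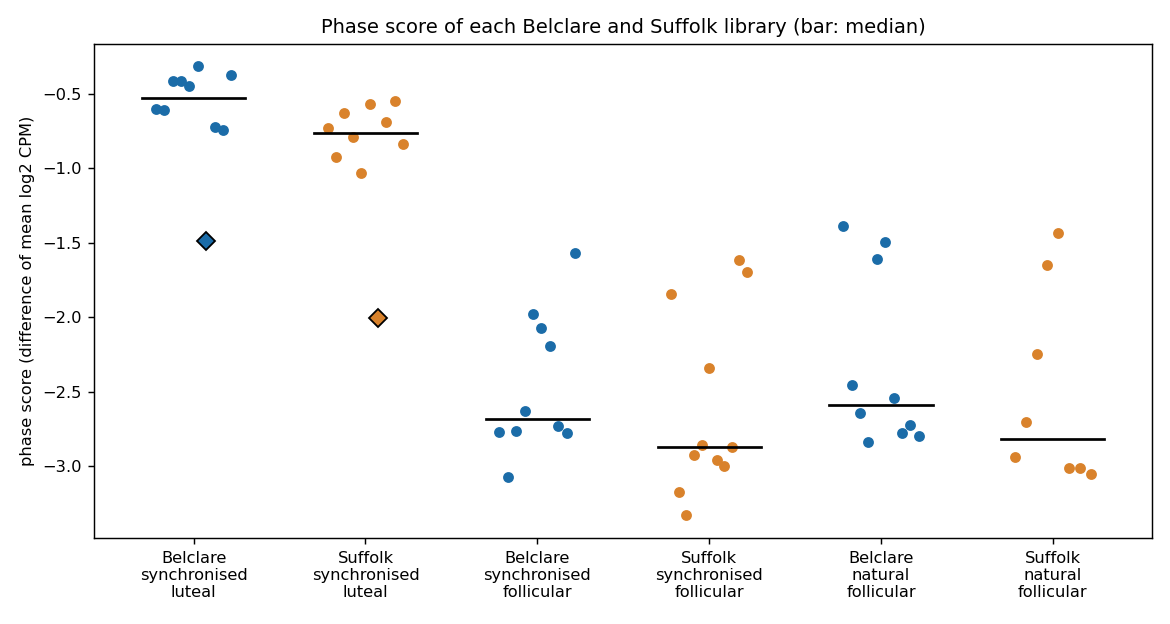
Phase score (difference of mean log2 CPM, y axis) of each Belclare and Suffolk library by cycle and phase, with the group median as a bar and the luteal replicate 7 of each breed as a diamond. Of the luteal ewes, 9 Belclare and 9 Suffolk lie above every follicular ewe, and the diamonds, at -1.49 and -2.01, lie among the follicular ewes.

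Of 14428 genes tested with edgeR's quasi-likelihood test, 335 were differentially expressed genes (DEGs), with a Benjamini-Hochberg adjusted p below 0.05 and a fold change (FC) above 1.5. This is 2.32% of the genes tested. In Belclare ewes 109 of them were higher (0.755% of genes tested) and 226 were lower (1.57%). The median log2 FC, Belclare minus Suffolk throughout, was 1.08 in the higher and -1.05 in the lower DEGs, and -0.01 over all genes. The unadjusted p was below 0.05 for 3598 genes, 24.9% of those tested. Of the variance of log2 CPM over the 20 libraries, 16.4% lay between the breeds (one-sided exact permutation of the breed labels, p = 0.00434). The usual share under permuted labels was not listed. The phase score also differs between the breeds, and the share was not computed with it.

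The smallest adjusted p was 0.0133, and the count of DEGs moved with the ewes included. With 1 library left out it lay between 51 (without Belclare replicate 10) and 969 (without Belclare replicate 7). It moved by over 1.5 times for each library other than Belclare replicates 8 and 9 and Suffolk replicates 1 and 10. All 335 DEGs kept their direction in each of these fits, and 44 were called in every one, 12 higher and 32 lower in Belclare. Without both replicates 7 there were 790 DEGs, 311 of them shared with the 335. With the phase score as a covariate there were 42 (10 higher, 32 lower), all among the 335, and the median size of the log2 FC of the 335 was 0.94 in place of 1.06. Of the 44 named identifiers called, 14 were called with the covariate and 41 without both replicates 7, where SLC28A3, PXDN and THBS2 (ENSOARG00000000300) lost the call. How far the phase score and breed share the same differences was not tested beyond this fit.

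**Figure D2:**
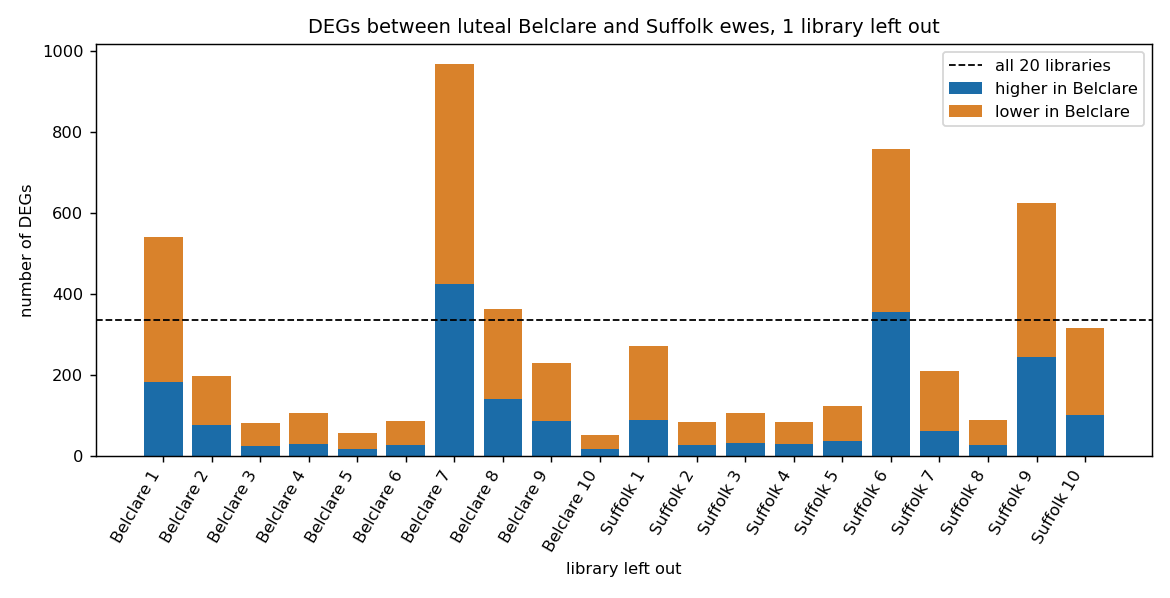
Number of DEGs (y axis) between luteal Belclare and Suffolk ewes with the library named on the x axis left out, split into genes higher and lower in Belclare, with the count from all 20 libraries (335) as a dashed line. The count runs from 51 without Belclare replicate 10 to 969 without Belclare replicate 7.

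Gene symbols were available only for the identifiers that the study's own tables name, so 1288 of the genes tested had a symbol. Of these, 72 were DEGs (5.59%), 13 higher and 59 lower in Belclare. The tables were built on the same series, and the genes with a symbol are therefore no neutral sample of the cervix.

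Among the genes higher in Belclare, PADI2 had the smallest p of those with a symbol. It encodes a peptidylarginine deiminase, which converts arginine residues of proteins to citrulline. Its level ran from 7.56 to 28.2 CPM in Belclare ewes (median 16.1) and from 2.47 to 10.6 CPM in Suffolk ewes (median 4.32). The log2 FC was 1.6 (SE 0.30, n = 10 and 10, adjusted p = 0.0204, edgeR). The lowest Belclare ewes, replicates 1 and 2, overlapped the highest Suffolk ewes, replicates 1, 6 and 9. PADI2 was called with each library left out and with the phase score as a covariate (adjusted p = 0.0437).

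NPC1 exports cholesterol from lysosomes. It had 155 to 403 CPM in Belclare (median 284) and 80.9 to 210 CPM in Suffolk ewes (median 106), a log2 FC of 1.04 (SE 0.23, adjusted p = 0.027, edgeR). Belclare replicates 1, 2, 7 and 8, at 155 to 199 CPM, lay within the Suffolk range, and the other Belclare ewes lay above it. VDR, the vitamin D receptor, had 33.3 to 73.1 CPM (median 49.3) against 19.0 to 51.4 CPM (median 30.6), with Suffolk replicate 6 the one Suffolk ewe above the Belclare median.

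TRIL, an accessory protein of Toll-like receptor signalling, was higher by a log2 FC of 1.08 (SE 0.24, adjusted p = 0.0289, edgeR), with medians of 18.8 and 7.71 CPM. SOCS6, of the family of suppressors of cytokine signalling, had medians of 23.7 and 12.5 CPM and a log2 FC of 0.96. Membrane and transport proteins were also among the higher DEGs. The nucleoside transporter SLC28A3 had a log2 FC of 0.71, the lipid phosphate phosphatase PLPP2 0.61 and the aspartyl protease BACE2 0.59, just past the threshold on FC. The folate receptor FOLR1 had the largest FC among them, a log2 FC of 2.02 (SE 0.53), at 0.878 to 7.09 CPM in Belclare and 0 to 1.78 CPM in Suffolk ewes. MED12L, a subunit of Mediator, and FADS6, of the fatty acid desaturase family, complete the higher genes described, with log2 FCs of 1.23 and 0.94. For each of these genes except PADI2, at least 7 of the 20 fits with 1 library left out lost the call. All of them except PADI2 also lost it with the phase score as a covariate, with adjusted p from 0.0507 for SLC28A3 to 0.153 for FADS6 (edgeR), among them NPC1 at 0.0875, TRIL at 0.0793, VDR at 0.107 and FOLR1 at 0.105.

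The gene with the smallest p among those with a symbol was MICB, which was lower in Belclare and encodes a stress-induced ligand of an activating receptor of natural killer cells. It had 1.75 to 8.60 CPM in Belclare (median 4.57) and 7.20 to 30.4 CPM in Suffolk ewes (median 14.5). The log2 FC was -1.59 (SE 0.26, adjusted p = 0.0133, edgeR). Belclare replicates 2 and 7 were above the lowest Suffolk ewe, replicate 9, and the other 8 Belclare ewes were below every Suffolk ewe.

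MLKL, the pore-forming protein of necroptosis, had 1.63 to 8.19 CPM in Belclare (median 4.12) and 8.53 to 13.4 CPM in Suffolk ewes (median 10.5), so that the breeds did not overlap. Its log2 FC was -1.24 (SE 0.23, adjusted p = 0.0204, edgeR). Of the genes tested, 6 (0.0416%) had breeds that did not overlap, and 3 of these were DEGs. The other two were ENSOARG00000020994, at 33.6 to 90.2 CPM in Belclare and 8.04 to 33.1 CPM in Suffolk ewes, and ENSOARG00000017237, at 1.09 to 4.35 and 4.8 to 7.99 CPM. Neither has a symbol in the tables used.

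A pair of the named genes lower in Belclare belong to Wnt signalling, a pathway for which no list of genes was examined. APCDD1, an inhibitor of that pathway at the cell surface, had 19.1 to 53.6 CPM in Belclare (median 39.7) against 37.2 to 167 CPM in Suffolk ewes (median 80.9), a log2 FC of -1.23 (SE 0.22). AXIN2, a feedback inhibitor that the pathway induces, had a log2 FC of -0.93 (SE 0.18) and medians of 11 and 19.3 CPM. In the FUR and Norwegian ewes both were lower at the luteal phase, with log2 FCs of -0.47 for APCDD1 and -0.70 for AXIN2. The stromal transcription factor FOXF1 was lower by a smaller step, with a log2 FC of -0.64 (SE 0.13) and medians of 5.68 and 8.65 CPM. CPT1C, of the carnitine palmitoyltransferase family, had a log2 FC of -1.39 (SE 0.27), and the calcium channel subunit CACNA1A -0.78 (SE 0.16). For all of these but CACNA1A the call held with each library left out. With the phase score as a covariate APCDD1 and CPT1C were called, as were MICB and MLKL, whereas AXIN2 (adjusted p = 0.0687, edgeR), FOXF1 (0.0659) and CACNA1A (0.0568) were not.

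The largest differences among the named DEGs with a symbol came with a wide spread among Suffolk ewes. TAC3, which encodes neurokinin B, was counted under a pair of identifiers, and reads could be split between them. Under ENSOARG00000010440 it had 0.157 to 1.81 CPM in Belclare (median 0.627) and 1.03 to 43.6 CPM in Suffolk ewes (median 5.60). Suffolk replicates 2 and 7, at 43.6 and 30.9 CPM, were far above the Suffolk median. Suffolk replicates 1, 6 and 9 lay within the Belclare range, and the other 7 Suffolk ewes lay above every Belclare ewe. The log2 FC was -4.04 (SE 0.70, adjusted p = 0.0172, edgeR), and -3.66 without both replicates 7. The other identifier, ENSOARG00000007920, had a log2 FC of -4.10 (SE 0.76). Both were called with each library left out, and with the phase score as a covariate the adjusted p was 0.0469 for the first and 0.0654 for the other (edgeR).

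C1QTNF6, a secreted protein with a C1q domain, had 0.181 to 1.16 CPM in Belclare and 0.816 to 5.21 CPM in Suffolk ewes, a log2 FC of -2.0 (SE 0.33, adjusted p = 0.0133, edgeR). PADI4, the peptidylarginine deiminase of neutrophils, was lower where its relative PADI2 was higher. It had a log2 FC of -1.90 (SE 0.39), with 1.63 to 5.72 CPM in Belclare and 3.96 to 36.2 CPM in Suffolk ewes, where replicates 2 and 7 were highest, and it lost the call with the phase score as a covariate (adjusted p = 0.0659, edgeR). Of the DEGs without a symbol, ENSOARG00000000058 also had a wide range in Suffolk, at 0.229 to 2.97 CPM in Belclare and 1.66 to 60.8 CPM in Suffolk ewes (log2 FC -3.84, SE 0.62). Suffolk replicates 1, 3, 4, 5, 7 and 10 had 13.4 CPM or more. ENSOARG00000009826 differed by a narrow but steady step, at 46.4 to 106 CPM in Belclare and 33.7 to 52.1 CPM in Suffolk ewes (log2 FC 0.77, SE 0.12).

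**Figure D3:**
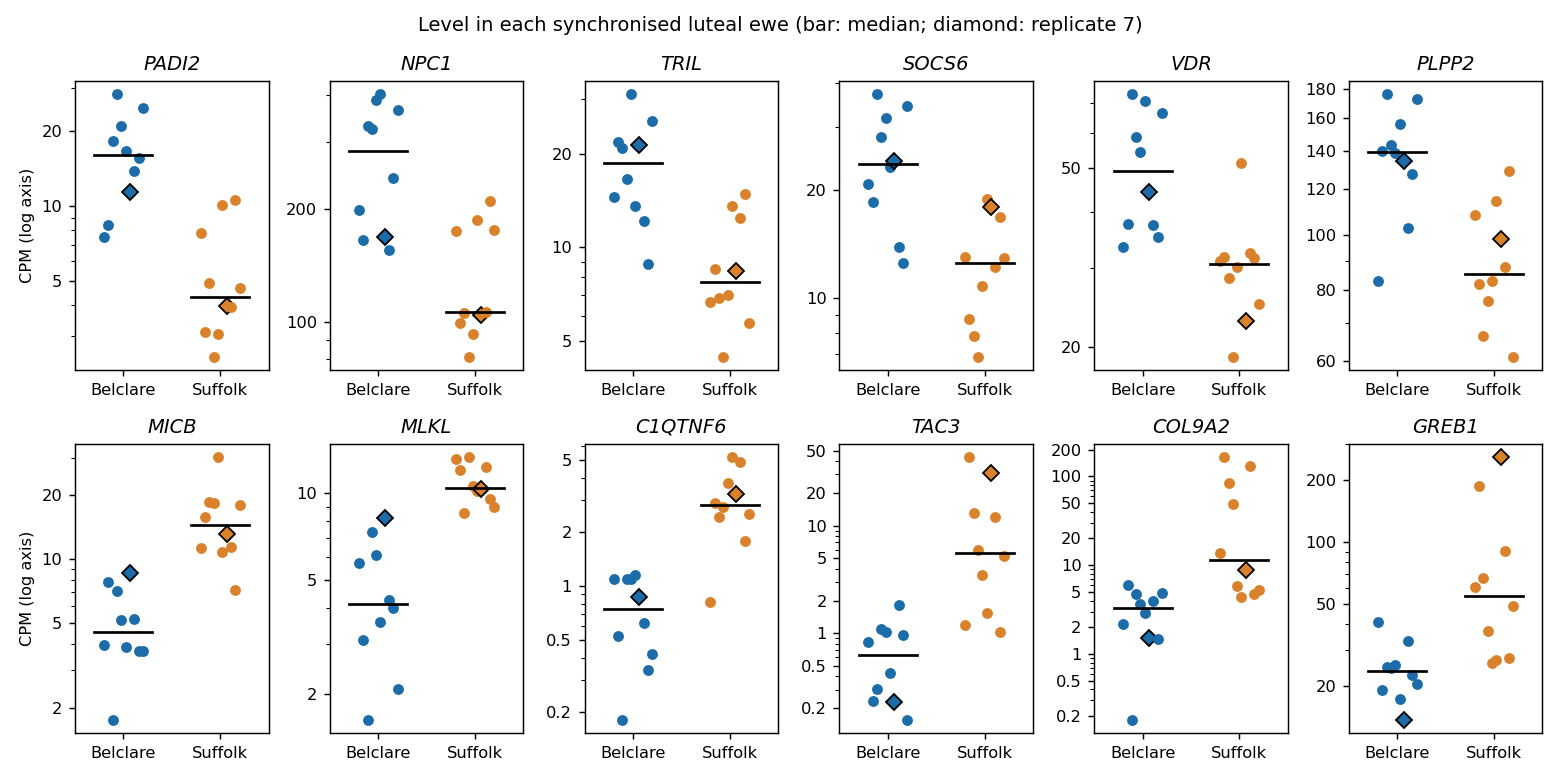
Level (CPM, log axis) of 12 DEGs in each of the 20 luteal ewes, with the breed median as a bar and replicate 7 as a diamond; the upper row holds genes higher and the lower row genes lower in Belclare. MLKL does not overlap between breeds, whereas in TAC3 (ENSOARG00000010440), COL9A2 and GREB1 the Suffolk ewes spread widely and overlap Belclare at the lower end.

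Genes of the extracellular matrix, the collagens, glycoproteins and proteases that set the stiffness of the stroma, formed the list with most DEGs lower in Belclare. Of 37 identifiers tested, 9 were DEGs lower in Belclare and 1 was a DEG higher, together 27.0% against 5.59% of all genes with a symbol and 2.32% of all genes. The log2 FC was below 0 for 34 of the 37, and its median was -0.61, beside 0.04 over all genes with a symbol. The 9 lower identifiers stand for 7 genes, because THBS2 was counted under 3 identifiers. No test was made of the list as a whole.

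COL9A2, a chain of the fibril-associated type IX collagen, had 0.181 to 6.03 CPM in Belclare (median 3.27) and 4.35 to 166 CPM in Suffolk ewes (median 11.3), a log2 FC of -3.89 (SE 0.76, adjusted p = 0.0204, edgeR). Suffolk replicates 2, 8, 3 and 4 had 166, 131, 84.6 and 49.4 CPM, and Suffolk replicates 5, 6, 9 and 10 lay within the Belclare range. The thrombospondin THBS2 had, under ENSOARG00000005037, 4.47 to 16.1 CPM in Belclare (median 9.69) and 8.92 to 130 CPM in Suffolk ewes (median 25.1), with replicate 7 the highest. Its log2 FC was -1.79 (SE 0.42), and -1.28 without both replicates 7.

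Other matrix DEGs overlapped between breeds, with medians apart. AEBP1, which is secreted and binds collagen, had 104 to 376 CPM in Belclare (median 258) and 296 to 907 CPM in Suffolk ewes (median 440), a log2 FC of -0.97 (SE 0.24). MMP2, a gelatinase, had 143 to 404 CPM (median 257) and 274 to 903 CPM (median 415), a log2 FC of -0.81 (SE 0.22). ADAMTS2, which trims procollagens, had 7.56 to 31.9 CPM (median 20.3) and 21.3 to 53.8 CPM (median 37.1), a log2 FC of -0.86 (SE 0.21). The other lower members were PODNL1, a leucine-rich repeat protein (log2 FC -0.87), and PXDN, the peroxidase that cross-links type IV collagen (log2 FC -0.79). EGFL6, a secreted protein with EGF-like repeats, was the 1 higher member, at 2.01 to 6.0 CPM in Belclare and 0.816 to 2.38 CPM in Suffolk ewes (log2 FC 0.93, SE 0.23, adjusted p = 0.0404, edgeR).

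Several abundant matrix genes did not pass the test and had values in the same range. FBLN1 had a log2 FC of -0.78 (adjusted p = 0.069, edgeR), LAMB1 -0.69 (adjusted p = 0.0534) and LOXL2 -0.67 (adjusted p = 0.0508). Every matrix DEG lower in Belclare was also lower at the luteal phase in the FUR and Norwegian ewes, with a phase adjusted p below 0.05 (edgeR). The log2 FCs were -1.42 for THBS2 (ENSOARG00000005037), -1.29 for COL9A2, -0.99 for PODNL1 and -0.80 for ADAMTS2. They were -0.78 for AEBP1, -0.48 for MMP2 and -0.41 for PXDN. EGFL6, the higher member, had 0.17 and did not pass the phase test. Over all 35 alternative fits the median of the list lay between -0.67 and -0.45. The number of members called lay between 0 and 14, and was 14 without Belclare replicate 7, 9 without both replicates 7 and 1, COL9A2, with the phase score as a covariate, where AEBP1 had an adjusted p of 0.119 (edgeR). Over all 14428 genes those fits called 969, 790 and 42.

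**Figure D4:**
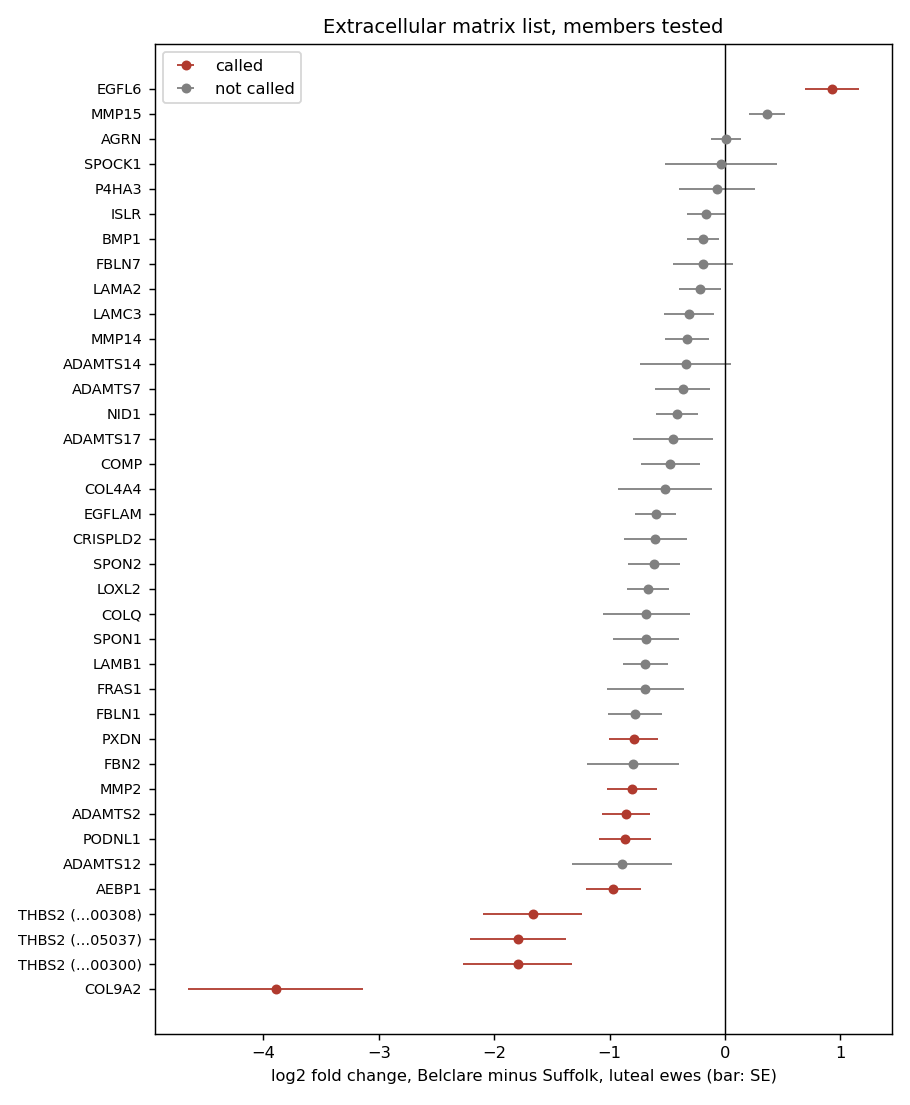
Log2 fold change, Belclare minus Suffolk (x axis), of the 37 tested identifiers of the extracellular matrix list in luteal ewes, with the standard error as a bar; called members are dark red and THBS2 appears under 3 identifiers. All but 3 members lie below 0, from COL9A2 at -3.89 to EGFL6 at 0.93.

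Genes tied to steroid hormones did not move one way. Of 21 members tested, 1 was higher and 2 were lower in Belclare, together 14.3% beside 5.59% of genes with a symbol, and the median log2 FC was 0.02. GREB1, a gene that oestradiol induces through its receptor, had 13.8 to 41.2 CPM in Belclare (median 23.6) and 26.1 to 259 CPM in Suffolk ewes (median 54.8). Suffolk replicates 7 and 2, at 259 and 187 CPM, were the highest, and Suffolk replicates 4, 5, 6 and 9 lay within the Belclare range. The log2 FC was -1.76 (SE 0.40, adjusted p = 0.0291, edgeR), and -1.31 without both replicates 7. With the phase score as a covariate it was -1.20 and the call was lost (adjusted p = 0.141, edgeR). The cytokine LIF had a log2 FC of -2.26 (SE 0.59, adjusted p = 0.0452), which was -1.34 without both replicates 7, where Suffolk replicate 7, at 71.2 CPM, is left out. With the phase score as a covariate it was -0.96 and not called (adjusted p = 0.237, edgeR). PADI2, described above, was the higher member. The oestrogen receptor ESR2, at 20.9 ± 15.8 CPM in Belclare and 7.96 ± 9.45 CPM in Suffolk ewes (SD, n = 10 each), did not pass the test (adjusted p = 0.211, edgeR).

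Leukocyte lists held 4 DEGs, all lower in Belclare, but the other members of these lists did not all go that way. JAK3, a kinase of lymphocyte cytokine receptors, was lower in Belclare by a log2 FC of -1.06 (SE 0.26, adjusted p = 0.0364, edgeR), at 6.45 to 34.4 CPM in Belclare and 19.2 to 51.2 CPM in Suffolk ewes. Belclare replicate 7 was the one Belclare ewe above the Suffolk median. PDCD1, the inhibitory receptor PD-1 of activated T cells, had a log2 FC of -1.37 (SE 0.36, adjusted p = 0.0444). These were the 2 DEGs of the 14 tested members of the T and NK cell list, 14.3% beside 5.59% of genes with a symbol, of which 12 had a log2 FC below 0 and the median was -0.43. Without both replicates 7 there were 4, all lower, in a fit that called 790 of all 14428 genes. With the phase score as a covariate, where 42 genes were called, there were 0, JAK3 having an adjusted p of 0.0835 and PDCD1 of 0.163 (edgeR). The summed level of the list ranged from 107 to 189 CPM in Belclare and from 130 to 274 CPM in Suffolk ewes.

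None of the 10 tested members of the B and plasma cell list was called, and 1 was lower without both replicates 7. The log2 FC was above 0 for 7 of the 10 with edgeR, and below 0 for 7 of the 10 with limma-voom. The median of that list was 0.35 and lay between -0.54 and 0.51 over all fits. Its summed level ranged from 632 to 64362 CPM in Belclare (median 2405) and from 1521 to 16508 CPM in Suffolk ewes (median 4525). The Belclare median thus lay below that of Suffolk, and the sign of the list depended on the fit. Of the 16 myeloid and neutrophil genes 2 were lower (12.5%, beside 5.59% of genes with a symbol), PADI4 and the transmembrane glycoprotein GPNMB. The list had a median log2 FC of -0.17, with 6 members above 0. GPNMB had a log2 FC of -1.57 (SE 0.43) and 183 and 137 CPM in Suffolk replicates 8 and 4. Its call was lost with the phase score as a covariate (adjusted p = 0.0665, edgeR) and held in 6 of the 20 fits with 1 library left out. Of 26 interferon-stimulated genes none was called, and their median log2 FC was 0.13. The fibrinogen chain FGB was the 1 DEG of the 15 acute phase and complement genes (6.67%, near the 5.59% of genes with a symbol). It had a log2 FC of -1.01 (SE 0.28, adjusted p = 0.0493, edgeR). All Suffolk ewes other than replicate 7, at 1.84 CPM, had more than the Belclare median of 5.68 CPM. The list had 5 DEGs, all lower, both without Belclare replicate 7 and without both replicates 7, and its median log2 FC moved from -0.27 to -0.65 and -0.41. Over all 14428 genes these fits called 969 and 790.

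Among epithelial products, QSOX1, a secreted enzyme that forms disulphide bonds, was the 1 DEG of the 8 mucin and secretory genes tested (12.5%, beside 5.59% of genes with a symbol). QSOX1 had 174 to 670 CPM in Belclare (median 303) and 322 to 901 CPM in Suffolk ewes (median 544). Its log2 FC was -0.84 (SE 0.22, adjusted p = 0.0466, edgeR). The list had 4 DEGs without Belclare replicate 7, 3 without both replicates 7 and 0 with the phase score as a covariate. Over all 14428 genes these fits called 969, 790 and 42. The gel-forming mucin MUC5AC was dominated by 1 ewe. Belclare replicate 7 had 325 CPM where the Belclare median was 3.73 CPM, and the Suffolk ewes had 2.45 to 121 CPM (median 12.5). Its log2 FC was 0.69 (SE 1.01, adjusted p = 0.702, edgeR) with all ewes and -2.25 (SE 0.68, adjusted p = 0.0438) without Belclare replicate 7. MUC5B had medians of 45.7 and 53.2 CPM and no call in any fit.

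None of the 17 glycan-building enzymes, 22 junction and keratin genes, 9 motile cilia genes, 19 ion and water transport genes or 5 smooth muscle genes was called. Their median log2 FCs were -0.28, 0.18, 0.50, 0.23 and 0.21. Without Belclare replicate 7, 5 glycan enzymes (1 higher, 4 lower), 3 transport genes and 1 junction gene were called, and without both replicates 7 these were 3, 1 and 1. Over all 14428 genes these fits called 969 and 790, against 335 with all ewes, so more calls in a list go with more calls in total. All 9 cilia genes had a log2 FC above 0, the nearest to the threshold being RSPH9 at 0.55 (SE 0.18, adjusted p = 0.0824, edgeR). Of 28 lysosomal genes NPC1 was higher and the mannosidase MAN2B2 (ENSOARG00000010776, log2 FC -1.14, SE 0.27) was lower. Together these are 7.14%, near the 5.59% of genes with a symbol, and 4 were called without both replicates 7. Both named genes of the mitochondrial genome that were tested had values close to 0, with a median of 0.11.

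The same contrast was made in follicular ewes, which share no animal with the luteal ewes. On the same 14428 genes edgeR called 0 DEGs at the synchronised follicular phase, where 906 genes had an unadjusted p below 0.05 (6.28%), and DESeq2's Wald test called 36. At the natural follicular phase edgeR also called 0, with 1390 genes at an unadjusted p below 0.05 (9.63%), and DESeq2 called 18. The median standard error of a log2 FC was 0.148 in the luteal, 0.145 in the synchronised follicular and 0.172 in the natural follicular comparison. The interaction of breed and phase over the 41 synchronised ewes called 0 genes with edgeR, with a smallest adjusted p of 0.127, 1525 genes at an unadjusted p below 0.05 (10.6%), and 19 called by DESeq2. The study itself reports DEGs between these breeds at the synchronised follicular phase, by DESeq2 with the same thresholds. With edgeR the luteal phase gave DEGs and the follicular phase did not, on genes filtered in the luteal ewes. The interaction nonetheless showed no single gene, by edgeR, to differ between breeds more at one phase than at the other. The smallest interaction adjusted p, 0.127, was shared by 5 genes, among them both identifiers of TAC3, with interaction terms of -3.48 (SE 0.71) and -3.52 (SE 0.76) on the log2 scale.

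The direction of the luteal DEGs was mostly shared with the follicular ewes. At the synchronised follicular phase 268 of the 335 (80.0%) had a log2 FC of the same sign, compared with 61.3% of all genes tested. At the natural follicular phase these were 252 (75.2%), compared with 61.0% of all genes. The median log2 FC, signed by the luteal direction, was 0.21 and 0.22. The luteal median size of 1.06 is no measure to compare these with, since the genes were chosen for their size and p in the luteal ewes. The sign was the same in both follicular comparisons for 214 of the 335 (63.9%), compared with 43.0% of all genes. For 25 of the 335, 11 higher and 14 lower in Belclare, the unadjusted p was also below 0.05 in both. The share of all genes that meets this last rule was not counted.

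MLKL and FOXF1 were among these 25. MLKL had log2 FCs of -0.88 (SE 0.21) in the synchronised and -0.70 (SE 0.27) in the natural follicular ewes, and FOXF1 -0.36 and -0.55. MICB had -1.23 (unadjusted p = 0.000147) and -0.48 (unadjusted p = 0.176), and PADI2 0.97 (unadjusted p = 5.75e-05) and 0.89 (unadjusted p = 0.0694). GREB1 had -0.10 and 0.20, PLPP2 -0.06 and 0.01, and NPC1 0.30 and 0.09. TAC3 (ENSOARG00000010440) had -0.59 (unadjusted p = 0.0503) and 0.15. FADS6 had the opposite sign, with -0.27 and -0.77.

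**Figure D5:**
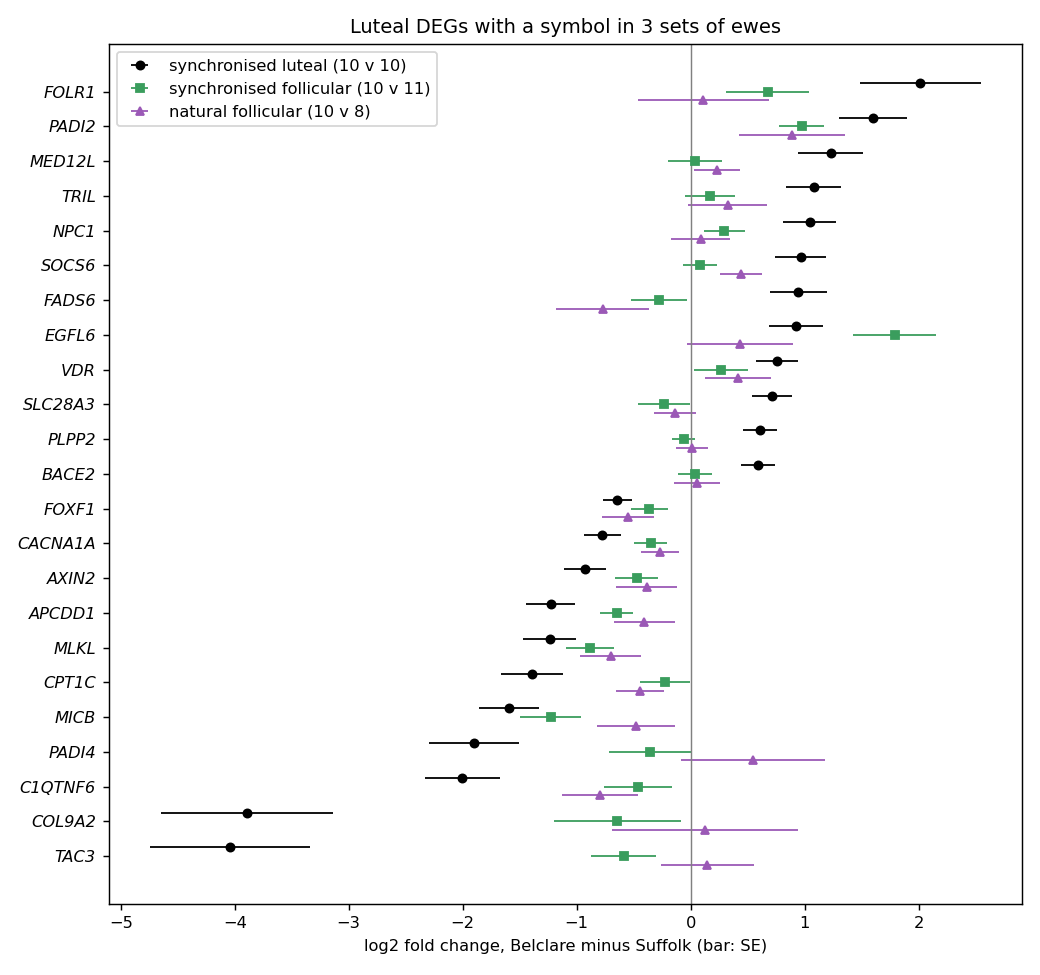
Log2 fold change, Belclare minus Suffolk (x axis), with its standard error as a bar, of the named luteal DEGs of smallest p in each direction, in 3 sets of different ewes; TAC3 is ENSOARG00000010440. PADI2 and MLKL keep their side in all 3 sets, whereas PLPP2 and BACE2 lie near 0 in both sets of follicular ewes.

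The DEGs were also read against the difference between phases in the FUR and Norwegian ewes, which share no library with the breed contrast. Of the 109 genes higher in Belclare, 104 had a phase value, and 83 of these (79.8%) were higher at the luteal phase, beside 51.8% of all genes. Of the 226 genes lower in Belclare, 149 (65.9%) were lower at the luteal phase, beside 48.2% of all genes. At an adjusted p below 0.05 and FC above 1.5, 47 of the higher DEGs rose and 5 fell at the luteal phase, and 17 of the lower DEGs rose and 80 fell. Over all 14353 genes with a phase value 2074 rose and 1566 fell. Among the named genes lower in Belclare, those that fell most at the luteal phase in those ewes were TAC3, with a log2 FC of -5.50 under ENSOARG00000010440, PADI4 (-2.92), GREB1 (-2.72) and C1QTNF6 (-2.45). Of the genes higher in Belclare, TRIL rose by 0.97 and VDR by 0.84. Others went the other way. PADI2 was higher in Belclare and had a phase log2 FC of -0.78, and GPNMB and FGB, lower in Belclare, had 1.48 and 1.47. MICB had 0.41, under the threshold on FC, and MLKL, FOXF1, SOCS6 and SLC28A3 did not pass the phase test. The phase score of the luteal ewes differs between the breeds, as given above, and its part in these differences was not tested.

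Levels were also set beside those of the FUR and Norwegian luteal ewes, in which breed and country cannot be told apart. For 83 of the 109 genes higher in Belclare (76.1%), the mean of the FUR and Norwegian levels on the log2 scale was nearer Suffolk. For the genes lower in Belclare it was nearer Suffolk in 124 of 226 (54.9%). The same share over all genes was not counted, and the DEGs were chosen on these Belclare and Suffolk levels. The shares therefore have no baseline and do not show which breed stands apart. NPC1 had 118 ± 42.0 CPM in FUR and 109 ± 45.6 CPM in Norwegian ewes (SD, n = 9 and 8), beside 274 ± 98.7 CPM in Belclare and 134 ± 47.0 CPM in Suffolk ewes (SD, n = 10 each). MICB had 16.7 ± 5.44 and 16.5 ± 8.5 CPM, against 5.09 ± 2.15 CPM in Belclare and 15.5 ± 6.48 CPM in Suffolk ewes. C1QTNF6 showed the reverse, with 0.681 ± 0.455 and 1.36 ± 1.01 CPM, near the 0.741 ± 0.366 CPM of Belclare and below the 3.03 ± 1.33 CPM of Suffolk ewes.

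A list of genes was taken from the DEGs that the study's text and its supplement name between these breeds at the synchronised follicular phase. Such a choice is no independent evidence of direction. At the luteal phase 9 of the 10 were tested and 3 were DEGs (33.3%), PADI2, EGFL6 and MICB. The share was 5.59% of genes with a symbol and 2.32% of all genes. SLC16A6, a monocarboxylate transporter family member, had medians of 0.950 and 0.969 CPM and a log2 FC of 0.08 (SE 0.41, adjusted p = 0.924, edgeR). The water and glycerol channel AQP9 had a log2 FC of 0.92 (SE 0.58, adjusted p = 0.336) and wide ranges, 17.4 to 145 CPM in Belclare and 2.90 to 134 CPM in Suffolk ewes. CCER2 had -0.51 (SE 0.25, adjusted p = 0.215), the chaperone CLGN 1.35 (SE 0.44, adjusted p = 0.0794) and the lectin LMAN1L 1.13 (SE 0.67, adjusted p = 0.296).

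ADAM7, a membrane protein of the ADAM family known from the epididymis, had the largest standard error of these genes. Its level ran from 3.25 to 506 CPM in Belclare (median 148) and from 0.403 to 101 CPM in Suffolk ewes (median 1.96). Suffolk replicates 1, 6, 9 and 10 had 23.1 to 101 CPM and the other Suffolk ewes at most 2.61 CPM. Belclare replicates 7 and 8 had 8.02 and 3.25 CPM and the other Belclare ewes at least 84.0 CPM. The log2 FC was 2.66 (SE 1.01, adjusted p = 0.118, edgeR), and ADAM7 rose at the luteal phase in FUR and Norwegian ewes by a log2 FC of 4.70. ST6GAL2 and ENSOARG00000015670 reached 1 CPM in too few luteal ewes to be tested. ENSOARG00000015670 had 0 to 391 counts in the Belclare and 0 to 41 counts in the Suffolk luteal ewes, with 6 Belclare and 9 Suffolk ewes at 6 counts or fewer.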

How the data were processed

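The data are gene counts deposited by the authors, who prepared stranded poly(A) libraries, trimmed reads with BBDuk, aligned them with STAR 2.6.1b to the Oar_v3.1 sheep genome and counted uniquely mapped pairs on Ensembl protein-coding genes with featureCounts (Subread 1.6.3). Whether counting used strand is not given in the sources used here. Genes with at least 1 CPM in 10 of the 20 luteal libraries were tested with edgeR 4.0.16 (R 4.3.3) by the quasi-likelihood test on TMM-normalised counts, with Benjamini-Hochberg adjustment. Alternatives used DESeq2 1.42.0 and limma 3.58.1. CPM levels used TMM library sizes over 114 libraries, and the phase genes came from 35 FUR and Norwegian libraries. No pair of libraries of 1 group agreed within counting noise. Named genes were the 12 of smallest p with a symbol in each direction, the unnamed genes of smallest p, called members of the gene lists, genes of the study's text and supplement, and tissue markers. Members and lists were chosen with earlier results of these data known. On simulated counts the test recovered 46.3% of genes changed 1.5-fold, 70.1% changed 2-fold and 98.5% changed 4-fold in the luteal comparison, over 14428 genes. Recovery was counted by an adjusted p below 0.05 without the threshold on FC, and 7 unchanged genes were called. The simulation drew each gene independently and set no ewe apart, unlike the real libraries. Recovery and false calls in the real comparison may therefore differ from these values. The authors' comparison columns were not used.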

Additional observations from a re-analysis of the deposited data

Results flagged for a closer look

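In groups of 10 ewes, a highest or lowest ewe was set apart when its gap to the next ewe, as a share of the group's range, exceeded Dixon's critical value, which chance alone gives in about 1 of 20 groups. Of 114 groups looked at, 7 had such a ewe. Replicate 7 of Belclare had a phase score of -1.49 and replicate 7 of Suffolk one of -2.01. MUC5AC reached 325 CPM in Belclare replicate 7. Suffolk replicate 7 had the highest LIF, at 71.2 CPM, and the lowest FGB, at 1.84 CPM. CACNA1A reached 51.4 CPM in Suffolk replicate 8 and CD27 13.7 CPM in Suffolk replicate 5.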

How the results depend on the processing

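The 335 DEGs kept their direction wherever an alternative gave them a value, but their number varied. It was 903 with DESeq2's Wald test, 866 with its likelihood ratio test, 168 with limma-voom, 0 with glmTreat against 1.5-fold (618 genes at an unadjusted p below 0.05), 684 with all 37 synchronised luteal libraries in 1 fit, 7 with the replicate block, 42 with the phase score and 790 without both replicates 7, the last pair chosen after seeing the data. With 1 library left out it was 51 to 969. DESeq2 called 36 genes at the synchronised and 18 at the natural follicular phase and 19 for the interaction, where edgeR called 0. Same-numbered ewes correlated between -0.33 and 0.37, 2 of 10 pairs above 0.1. These correlations gave no sign of pairing by number, although replicate 7 stood apart on the phase score in both breeds. Whether the numbers follow anything shared between the breeds was not tested. The block gave 0 calls in the follicular comparisons and the interaction. Some uncalled markers changed sign. MUC5AC was -1.18 with both DESeq2 tests, -1.16 with limma-voom, -1.54 with the block, -0.36 with ACTG2 and DES, -0.30 with the phase score and -2.36 without both replicates 7. CD27 was -0.38, -0.40 and -0.0399 with limma-voom, the block and ACTG2 and DES, and -0.57 without both replicates 7, where MUC5B was -0.16. DES was -0.41, -0.42 and -0.22 with limma-voom, the block and ACTG2 and DES. With 1 library left out the ranges were -0.16 to 0.39 for SLC16A6, -0.0637 to 0.33 for MUC5B, -0.58 to 0.47 for CD27, -2.25 to 1.62 for MUC5AC and -0.19 to 0.34 for DES. The cause was not tested.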

Other observations

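The Suffolk library whose labels disagree on cycle and phase had a phase score of -0.88.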
